A study of Homo sapiens with 40 samples.

Results

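A set of 10 genes of the NF-kB pathway and its secreted products was followed through the RNA of RKO cells, a cell line established from a human colorectal carcinoma. They are the ubiquitin ligases BIRC3 and BIRC2, the inhibitors NFKBIA and TNFAIP3, the NF-kB subunits RELB, NFKB1 and NFKB2, and the cytokines IL11, CXCL8 and LIF. They were matched by Ensembl identifier, and all 10 were found among the 19962 genes listed. The choice of the set rested partly on its values, since BIRC3 and IL11 had been seen to be higher with doxycycline (Dox) than with its solvent control in each of 3 cell lines. Values of the 10 genes with Dox are therefore given as a description without a test, and their tests are confined to the small interfering RNA (siRNA) libraries.

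NF-kB is a family of dimeric transcription factors that inhibitor proteins hold in the cytoplasm until a signal, such as a cytokine binding its receptor, leads to the inhibitor's destruction. In the canonical branch the IKK kinases mark IkB-alpha, the product of NFKBIA, for degradation. In the noncanonical branch the kinase NIK, which BIRC2 and BIRC3 help to keep scarce, leads to processing of the NFKB2 product into a subunit that pairs with RELB. NFKBIA, TNFAIP3 and BIRC3 are themselves known NF-kB targets, which is why they are called feedback genes. The products of NFKBIA and TNFAIP3 dampen the signal. That of BIRC3 restrains the noncanonical branch through NIK and also acts on RIPK1, so it is not a general inhibitor. IL11 and LIF are cytokines of the interleukin-6 family that signal through the shared receptor chain encoded by IL6ST, and CXCL8 encodes a chemokine that attracts neutrophils.

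The 40 libraries form 10 groups of 4. All cells carried a Dox-inducible Cas9 nuclease and a lentiviral vector with a pair of guide RNAs and a blue fluorescent marker by which they were sorted, and nothing in the labels names single clones. The guides were directed against the AAVS1 locus (sgAAVS1, the control line), IGF2BP2 (sgIGF2BP2) or IGF2BP3 (sgIGF2BP3), the latter 2 encoding RNA-binding proteins. Each line was given DMSO, or Dox at 250 ng/mL for 72 hours to induce Cas9. In addition, sgIGF2BP2 cells were transfected with a non-targeting siRNA (siControl) or a pool against IGF2BP2 (siIGF2BP2), and sgIGF2BP3 cells with siControl or a pool against IGF2BP3 (siIGF2BP3), at 75 nM for 48 hours. Every culture received the nucleoside 4-thiouridine at 250 µM for 2 hours, the label used in SLAMseq to mark newly made RNA. The counts analysed here cover all RNA of a gene, so new and older RNA were not separated. Dox and DMSO cultures differ at once in the drug, in Cas9 and in DNA cutting. In sgIGF2BP2 and sgIGF2BP3 cells they also differ in the loss of the targeted gene. These cannot be told apart within a line. The replicates were single wells of 1 plate format made in quadruplicate, so p-values measure the spread between wells.

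Total counts per library ran from 1.00e+07 to 2.48e+07 (median 1.35e+07), and 11428 genes passed the filter on low counts. The targeted genes were lower as labelled: 39.7% of IGF2BP2 was left after Dox and 27.9% after siIGF2BP2, and 31.2% and 14.6% of IGF2BP3 after Dox and siIGF2BP3. Of the epithelial and intestinal markers, EPCAM, KRT8, KRT18 and CDX2 were present, with group means of 13.0 to 15.0, 44.9 to 65.6, 120 to 210 and 18 to 21.2 CPM (counts scaled to the size of the library). KRT19, CDH1 and VIL1 reached at most 4, 2 and 2 counts, and CDX1 and LGR5 had none. Of the 10 leukocyte, fibroblast and endothelial markers reported here, CD3E, COL1A2 and DCN were at 0 in all libraries, CD68 had 13 to 53 counts (group means of 1.94 to 2.41 CPM), COL1A1 reached 11 counts and CD14 8, and PTPRC, PDGFRB, PECAM1 and VWF reached at most 4.

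Promoter sequence was read for 8 of the 10 genes from RefSeq (GRCh38.p14), as 250 bases before to 50 bases after each annotated start site. RELB and LIF had no entry. The kappa-B consensus, a DNA element that NF-kB dimers bind, was searched on both strands as GGGRNNYYCC (R for A or G, Y for C or T, N for any base). It was found in 6 of the 12 promoter windows of these genes (in 5 of the 8 genes, some of which have several start sites). Of 35116 human promoters of the same length, 11.3% had a match. The element TGANTCA, bound by AP-1 factors and the same on both strands, was found in 2 of the 12 windows, those of 2 genes, against 7.71% of all promoters. No match to the kappa-B pattern was found in the windows of IL11, CXCL8 or BIRC2. Sites that depart from the pattern were not searched for, so a gene without a match may still have one. The matches are shown because they show which pattern was matched in each of these 7 genes (kappa-B in BIRC3, NFKBIA, TNFAIP3, NFKB1 and NFKB2, TGANTCA in IL11 and CXCL8). The matched letters are in capitals with 10 flanking bases on each side, in the direction of the gene.
BIRC3, chr11:102317275-102317304, plus strand: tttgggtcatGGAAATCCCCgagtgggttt
BIRC3, chr11:102317339-102317368, plus strand: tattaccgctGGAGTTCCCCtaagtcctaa
NFKBIA, chr14:35404811-35404840, minus strand: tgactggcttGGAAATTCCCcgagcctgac
TNFAIP3, chr6:137867182-137867211, plus strand: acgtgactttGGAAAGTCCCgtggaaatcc
TNFAIP3, chr6:137867194-137867223, plus strand: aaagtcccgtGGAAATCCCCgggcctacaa
NFKB1, chr4:102501300-102501329, plus strand: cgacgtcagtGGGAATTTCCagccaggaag
NFKB2, chr10:102394461-102394490, plus strand: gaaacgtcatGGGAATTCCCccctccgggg
IL11, chr19:55370543-55370569, minus strand: gcagggagggTGAGTCAggatgtgtca
CXCL8, chr4:73740422-73740448, plus strand: ggaagtgtgaTGACTCAggtttgccct
NFKB2 has further matches at its several start sites. Counted from the RefSeq start site, the first matched base lies 199 and 135 bases upstream in BIRC3, 81 in NFKBIA and 67 and 55 in TNFAIP3. It lies 49 bases upstream in NFKB1, 107 in NFKB2, 96 in IL11 and 137 in CXCL8. The gene positions given below come from another annotation, GENCODE, and can start elsewhere. For TNFAIP3 the GENCODE start lies before both matches. A match is a description of the letters and was not tested for binding.

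The 10 genes differed widely in level. Per kilobase of annotated exon, the median over the 40 libraries was 33.9 CPM for LIF, 25.6 for NFKB2, 14.2 for both RELB and BIRC2, 12.8 for NFKBIA, 11 for NFKB1, 5.96 for IL11, 1.41 for BIRC3, 1.01 for TNFAIP3 and 0.199 for CXCL8. Thus the feedback gene BIRC3 was among the scarce transcripts while its neighbour and relative BIRC2 was not. CXCL8, one of the best known NF-kB targets, had between 2 and 17 counts in a library and did not pass the filter, so 9 of the 10 genes entered the fit. NFKBIA ranged over the libraries from 308 to 705 counts, BIRC3 from 82 to 236 and TNFAIP3 from 42 to 116.

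**Figure D1:**
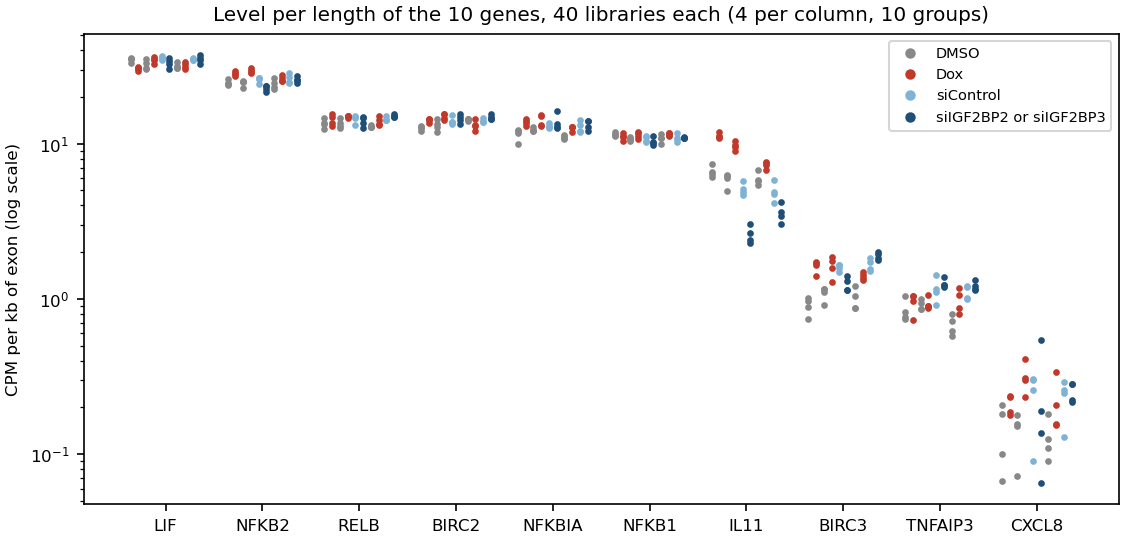
Level of the 10 genes per kilobase of exon (CPM per kb, log axis) in every library. Each column of points is 1 of the 10 groups with 4 libraries, coloured by treatment. The median runs from 33.9 CPM per kb for LIF to 0.199 for CXCL8, and IL11 and BIRC3 spread more between groups than the genes above them.

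The rule by which the genes were chosen names the Dox comparisons and not the siRNA ones, although earlier siRNA results of these data were known as well. Counted over the 9 fitted genes, siIGF2BP2 lowered 3 (BIRC3, NFKB2 and IL11) and raised none, where 18.4% of all genes tested were called lower and 18.4% higher (36.8% in either direction). Both counts are of edgeR adjusted p-values under 0.05, and these 3 genes were also those without overlap, as were 15.6% of all genes in that direction. siIGF2BP3 lowered IL11 alone, where 1.40% of all genes were called lower, 0.936% higher and 2.34% in either direction. The siRNA effects differed for 2 of the 9 genes, BIRC3 and IL11, both with the higher value for siIGF2BP3, against 9.88% of all genes in that direction and 18.7% in either. The pools were given to different lines and lowered their targets to different degrees, so pool, line and depth of knockdown cannot be told apart in this difference. The median log2 change of the 9 genes was -0.05 with siIGF2BP2 and 0.05 with siIGF2BP3, against 0.01 and 0.00 over all genes. Between the siControl groups of the lines 0 of 9 genes were called by edgeR or by DESeq2, and 0 had an unadjusted p under 0.05 in edgeR's test, where 0.0175% of all genes were called.

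With Dox, 5 of the 9 genes were higher without overlap in sgAAVS1 cells (BIRC3, BIRC2, NFKBIA, NFKB2 and IL11), where 8.04% of all genes were, and LIF was lower, as were 9.48% of all genes. In sgIGF2BP2 cells 4 were higher (BIRC3, NFKBIA, NFKB2 and IL11; 8.92% of all genes), and in sgIGF2BP3 cells 5 (BIRC3, NFKBIA, TNFAIP3, RELB and IL11; 5.76% of all genes). BIRC3, NFKBIA and IL11 were in all 3 of these sets. These counts describe the comparison by which the set was chosen, and nothing is read from them.

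BIRC3 encodes cIAP2, a ubiquitin ligase that acts on RIPK1 and NIK (ENSG00000023445, chromosome 11, 102317450 to 102339403, plus strand, GRCh38). With DMSO its level was 7.58, 5.55, 7.32 and 6.65 CPM in sgAAVS1 cells, and with Dox 13.0, 10.5, 12.8 and 12.5 CPM. In sgIGF2BP2 cells it was 6.87, 8.75, 8.68 and 8.31 CPM with DMSO and 13.1, 11.9, 9.73 and 14 CPM with Dox. In sgIGF2BP3 cells it was 9.08, 6.54, 7.85 and 6.61 CPM with DMSO and 11.3, 9.92, 10.7 and 10.2 CPM with Dox. All 4 Dox libraries lay above all 4 DMSO libraries in each of the 3 lines. The log2 fold change was 0.86 (SE 0.11) in sgAAVS1, 0.58 (SE 0.10) in sgIGF2BP2 and 0.48 (SE 0.11) in sgIGF2BP3 cells. Set against the change in sgAAVS1 cells, that in sgIGF2BP2 cells was smaller by a log2 difference of -0.28 (SE 0.15) and that in sgIGF2BP3 cells by -0.37 (SE 0.16).

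BIRC3 was then compared between the siRNA libraries. With siControl in sgIGF2BP2 cells BIRC3 stood at 11.2, 12.4, 12.4 and 11.9 CPM, and with siIGF2BP2 at 8.57, 10.5, 9.74 and 8.60 CPM. All 4 siIGF2BP2 libraries lay below all 4 controls. BIRC3 fell to 78.3% of the control level, a log2 fold change of -0.35 (SE 0.10, edgeR quasi-likelihood test, Benjamini-Hochberg adjusted p = 0.005). In sgIGF2BP3 cells it stood at 11.3, 11.7, 13.8 and 13.1 CPM with siControl and at 13.4, 13.9, 15.1 and 14.7 CPM with siIGF2BP3. Those groups overlapped, and the log2 fold change of 0.19 (SE 0.097) did not pass the test (adjusted p = 0.373 by edgeR). The difference between the siRNA effects did, at a log2 value of 0.54 (SE 0.14, adjusted p = 0.00352 by edgeR).

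The levels of BIRC3 in the control cultures themselves stood apart. In sgIGF2BP2 cells siControl libraries averaged 12 ± 0.567 CPM of BIRC3 and DMSO libraries 8.15 ± 0.877 (SD, n = 4), a ratio of 1.47, and in sgIGF2BP3 cells 12.5 ± 1.17 and 7.52 ± 1.2, a ratio of 1.66. The groups did not overlap in either line. Of the rest of the set, NFKBIA, TNFAIP3, RELB and LIF were also higher with siControl without overlap in sgIGF2BP3 cells, and all overlapped in sgIGF2BP2 cells. The share of all genes without overlap between siControl and DMSO was not computed, so the separation is not read as particular to BIRC3. Since siControl and DMSO cultures differ in transfection, solvent and duration, these cannot be told apart, and the levels carry no test because the DMSO libraries were used in the choice of genes.

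BIRC2, which encodes the related ligase cIAP1, lies 7.81 kb downstream of BIRC3 on the same strand (ENSG00000110330, chromosome 11, 102347211 to 102378670). It was at 58.4, 55.1, 57.4 and 59.1 CPM with DMSO and 65.8, 64.1, 61.8 and 65.2 CPM with Dox in sgAAVS1 cells, without overlap. In sgIGF2BP3 cells it was at 63.2, 65.0, 65.7 and 65.2 CPM with DMSO and 65.3, 59.1, 60.0 and 54.7 CPM with Dox, with overlap. The Dox change in log2 was 0.16 (SE 0.051), 0.20 (SE 0.050) and -0.12 (SE 0.051) in sgAAVS1, sgIGF2BP2 and sgIGF2BP3 cells, so the neighbours BIRC3 and BIRC2 took opposite signs in the last. Neither siRNA gave a change of BIRC2 that passed the test, with log2 values of 0.04 (SE 0.050, adjusted p = 0.573 by edgeR) for siIGF2BP2 and 0.08 (SE 0.050, adjusted p = 0.535 by edgeR) for siIGF2BP3.

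**Figure D2:**
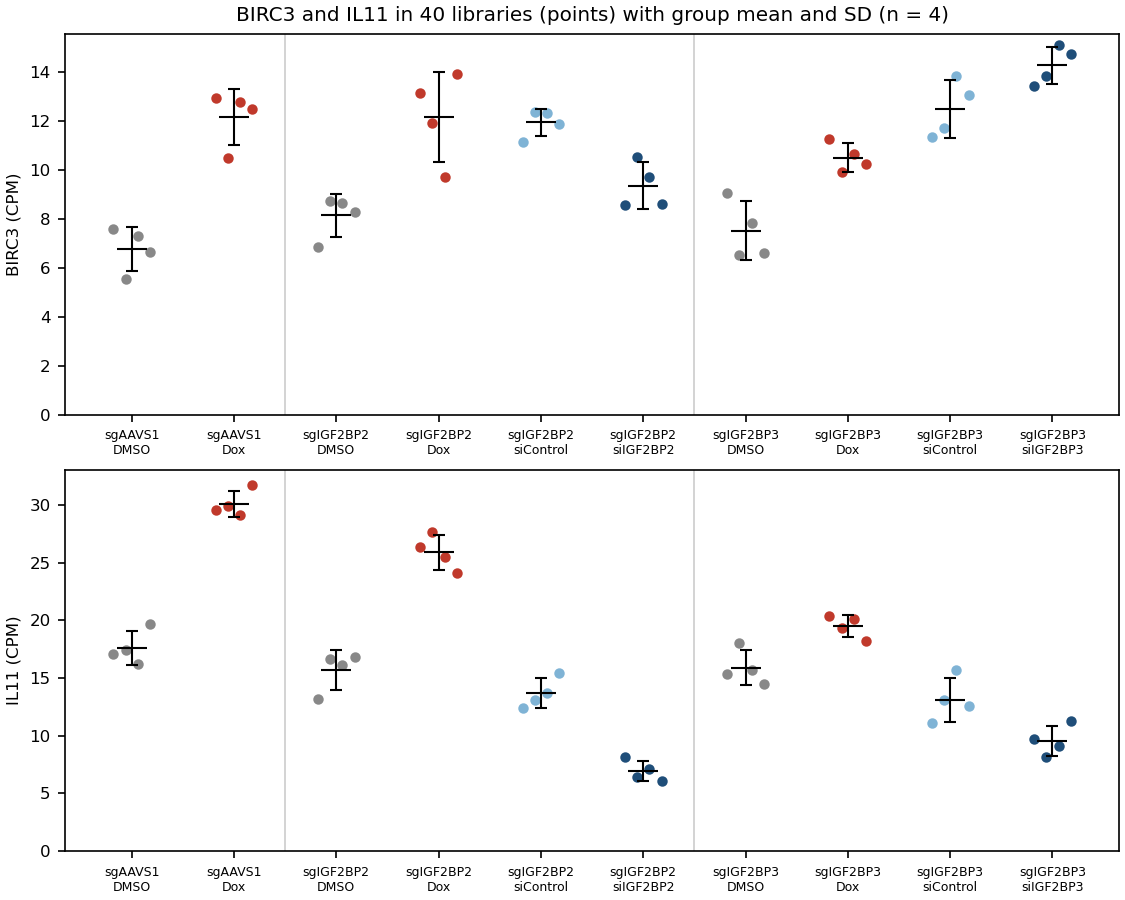
BIRC3 (top) and IL11 (bottom) in CPM in each of the 40 libraries (points), with the group mean (long bar) and SD (whiskers, n = 4), grouped by cell line. Dox libraries lie above the DMSO libraries of the same line for both genes. With siIGF2BP2 both are below siControl, while with siIGF2BP3 only the mean of IL11 is below.

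NFKBIA encodes IkB-alpha, the inhibitor that NF-kB itself renews after its loss (ENSG00000100906, chromosome 14, 35401511 to 35404749, minus strand). Its level with DMSO and with Dox was 28.7, 27.7, 23.5 and 29 against 34.0, 33.2, 31.0 and 32.0 CPM in sgAAVS1 cells. In sgIGF2BP2 cells the values were 29, 30.5, 28.7 and 28.5 against 30.9, 36.5, 31.5 and 35.6 CPM, and in sgIGF2BP3 cells 25.9, 26.5, 27.1 and 25.3 against 30.3, 30.3, 30.4 and 28.4 CPM. The Dox libraries were the higher in every line without overlap, by small steps of 0.26 (SE 0.069), 0.22 (SE 0.067) and 0.19 (SE 0.070) in log2. After siIGF2BP2, NFKBIA averaged 32.6 ± 4.04 against 30.9 ± 1.01 CPM, and after siIGF2BP3 31.3 ± 2.21 against 30.5 ± 2.57 CPM (SD, n = 4). Neither difference passed the test (adjusted p = 0.343 by edgeR and 0.843).

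TNFAIP3 encodes A20, an enzyme that edits ubiquitin chains on signalling proteins and so ends the signal (ENSG00000118503, chromosome 6, 137867188 to 137883312, plus strand). In sgIGF2BP3 cells it was at 3.63, 3.12, 4.03 and 2.89 CPM with DMSO and at 4.04, 5.91, 5.37 and 4.44 CPM with Dox, a log2 fold change of 0.53 (SE 0.15) with no overlap, though the highest DMSO and the lowest Dox library nearly met (4.03 and 4.04 CPM). In sgAAVS1 and sgIGF2BP2 cells the groups overlapped, with changes of 0.17 (SE 0.15) and 0.01 (SE 0.14). The siRNA changes of 0.13 (SE 0.13) and 0.11 (SE 0.13) were about the size of their errors and did not pass the test (adjusted p = 0.445 by edgeR and 0.774). Like BIRC3, TNFAIP3 was higher with siControl than with DMSO, at 5.83 ± 1.07 against 4.63 ± 0.325 CPM in sgIGF2BP2 cells, with overlap, and 5.60 ± 0.560 against 3.42 ± 0.511 CPM in sgIGF2BP3 cells, without. As for BIRC3, these levels carry no test, and the share of all genes without overlap was not computed.

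NFKB2 encodes p100, the precursor of the noncanonical subunit p52 (ENSG00000077150, chromosome 10, 102394110 to 102402529, plus strand). With siControl it stood at 108, 117, 119 and 119 CPM and with siIGF2BP2 at 102, 105, 105 and 96.1 CPM. The groups did not overlap, and NFKB2 fell by 0.19 on the log2 scale (SE 0.045, adjusted p = 6.77e-04 by edgeR). With siIGF2BP3 it was at 111, 115, 123 and 116 CPM against 110, 120, 128 and 113 CPM in the controls, a log2 change of -0.02 (SE 0.045, adjusted p = 0.884 by edgeR). The difference between the siRNA effects was 0.16 (SE 0.064), which did not pass the test (adjusted p = 0.0648 by edgeR), but did without the filter on low counts (0.0416) and with a replicate block (0.0247), and in 4 of the 16 fits that left out 1 library, but not with the other alternatives.

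With Dox, NFKB2 was at 125, 132, 128 and 123 CPM against 107, 111, 117 and 108 CPM with DMSO in sgAAVS1 cells. In sgIGF2BP2 cells it was at 128, 134, 138 and 130 against 103, 112, 113 and 113 CPM, and in sgIGF2BP3 cells at 114, 114, 119 and 124 against 105, 119, 111 and 101 CPM. The log2 changes were 0.20 (SE 0.045), 0.26 (SE 0.044) and 0.12 (SE 0.045), and the groups overlapped in sgIGF2BP3 cells alone.

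RELB, the partner of p52, and NFKB1, which encodes the canonical subunit precursor p105, moved little. RELB (ENSG00000104856, chromosome 19, 45001430 to 45038198, plus strand) lay between 38.0 and 47.5 CPM in all 40 libraries. Its Dox changes were 0.07 (SE 0.057), 0.15 (SE 0.056) and 0.12 (SE 0.057) in log2, and the groups did not overlap in sgIGF2BP3 cells, where 38.9 to 40.1 CPM with DMSO faced 40.3 to 45.7 CPM with Dox. NFKB1 (ENSG00000109320, chromosome 4, 102501329 to 102617302, plus strand) lay between 61.7 and 74.5 CPM, and its groups overlapped in all 3 Dox comparisons and both siRNA comparisons. Neither gene passed the test after siIGF2BP2 (adjusted p = 0.511 for both by edgeR) or siIGF2BP3 (adjusted p = 0.703 for RELB and 0.977 for NFKB1 by edgeR).

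IL11 encodes interleukin-11, a secreted cytokine that acts through IL11RA and IL6ST (ENSG00000095752, chromosome 19, 55364389 to 55370463, minus strand). With siControl in sgIGF2BP2 cells its level was 12.4, 13.1, 13.7 and 15.4 CPM, and with siIGF2BP2 8.14, 6.39, 7.14 and 6.11 CPM. The groups lay far apart. IL11 fell to 50.8% of the control, a log2 fold change of -0.98 (SE 0.11, adjusted p = 7.18e-12 by edgeR), which stayed between -1.06 and -0.92 when each of the 8 libraries was left out in turn. In sgIGF2BP3 cells the level was 11.1, 13.1, 15.7 and 12.6 CPM with siControl and 9.76, 8.16, 9.11 and 11.3 CPM with siIGF2BP3. Here 1 library of each group crossed the other's range by a narrow margin, and IL11 fell to 72.8% of the control (log2 fold change -0.47, SE 0.10, adjusted p = 0.00231 by edgeR). The fall was larger with siIGF2BP2 than with siIGF2BP3, by a log2 difference of 0.51 (SE 0.15, adjusted p = 0.00837 by edgeR).

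With Dox, IL11 was at 29.6, 29.9, 29.1 and 31.7 CPM against 17.1, 17.5, 16.2 and 19.7 CPM with DMSO in sgAAVS1 cells. It was at 26.4, 27.6, 25.5 and 24.1 against 13.2, 16.6, 16.1 and 16.8 CPM in the sgIGF2BP2 line, and in the sgIGF2BP3 line at 20.4, 19.4, 20.1 and 18.2 against 15.4, 18, 15.7 and 14.5 CPM. None of these pairs of groups overlapped, though in sgIGF2BP3 cells the highest DMSO library came close to the lowest Dox library. The log2 changes were 0.77 (SE 0.080), 0.72 (SE 0.082) and 0.29 (SE 0.086), and the change in sgIGF2BP3 cells was smaller than that in sgAAVS1 cells by a log2 difference of -0.48 (SE 0.12). The change in sgIGF2BP2 cells differed from that in sgAAVS1 cells by -0.04 (SE 0.12). Like the Dox changes themselves, differences between them are a description and carry no test, for IL11 as for BIRC3.

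Ordered over the 10 groups, IL11 was highest in sgAAVS1 cells with Dox (30.1 ± 1.15 CPM, SD, n = 4), then in sgIGF2BP2 with Dox (25.9 ± 1.49) and sgIGF2BP3 with Dox (19.5 ± 0.988). The 3 DMSO groups followed at 17.6 ± 1.46, 15.9 ± 1.52 and 15.7 ± 1.71 CPM for sgAAVS1, sgIGF2BP3 and sgIGF2BP2, the siControl groups at 13.7 ± 1.29 and 13.1 ± 1.90 CPM, and siIGF2BP3 and siIGF2BP2 came last at 9.57 ± 1.30 and 6.95 ± 0.907 CPM. Of the 9 pairs of neighbours in this order, 6 overlapped; those apart were the 3 Dox groups from one another and the last 2 groups. For each of the other 9 genes all 9 pairs of neighbours overlapped. BIRC3 ran from 14.3 ± 0.767 CPM with siIGF2BP3 down to 6.78 ± 0.904 CPM in sgAAVS1 cells with DMSO.

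The IL11 gene lies 247 kb from PPP1R12C, the gene that contains the AAVS1 locus, so its neighbourhood was examined. The 33 other tested genes within 1 Mb of IL11 had a median log2 change with Dox of -0.03 in sgAAVS1 cells (2 called higher and 4 lower by edgeR's test), 0.10 in sgIGF2BP2 cells (5 and 2) and 0.03 in sgIGF2BP3 cells (1 and 0). Over all genes tested, 15.9%, 20.4% and 2.64% were called in either direction in these lines.

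LIF encodes leukemia inhibitory factor (ENSG00000128342, chromosome 22, 30240447 to 30246851, minus strand). It was the one gene of the set that was lower with Dox without overlap in any line: in sgAAVS1 cells it was at 120, 122, 117 and 123 CPM with Dox against 142, 139, 131 and 140 CPM with DMSO, a log2 change of -0.20 (SE 0.043). In sgIGF2BP2 cells the change was 0.10 (SE 0.043) and in sgIGF2BP3 cells 0.01 (SE 0.043), with overlap in both. After siIGF2BP2 it was at 135, 130, 120 and 141 CPM against 138, 142, 141 and 146 CPM, an overlapping difference of -0.10 (SE 0.043) that just missed the threshold (adjusted p = 0.0522 by edgeR). Its adjusted p was 0.0389 with another scaling, 0.0330 without the filter, 0.0251 with a replicate block and 0.0452 by DESeq2, but 0.0698 with only the groups compared. With 1 library left out the call was gained in 3 of 8 fits, and without siIGF2BP2 replicate 3 the change was -0.06 (adjusted p = 0.273 by edgeR). After siIGF2BP3 the log2 change of LIF was 0.00 (SE 0.043, adjusted p = 0.985 by edgeR).

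CXCL8, interleukin-8 (ENSG00000169429, chromosome 4, 73740506 to 73743716, plus strand), is described by its few counts. In sgIGF2BP2 cells it had 7, 17, 7 and 9 counts with Dox (0.715 ± 0.168 CPM) and 2, 4, 10 and 5 with DMSO (0.319 ± 0.106 CPM; SD, n = 4), groups that did not overlap once scaled to library size. In sgAAVS1 cells it had 6, 5, 6 and 7 counts with Dox and 3, 7, 2 and 7 with DMSO, and in sgIGF2BP3 cells 4, 6, 9 and 5 against 4, 7, 4 and 3. With siIGF2BP2 it had 5, 16, 2 and 5 counts, from 0.149 to 1.23 CPM. A change of CXCL8 with either siRNA was not tested.

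**Figure D3:**
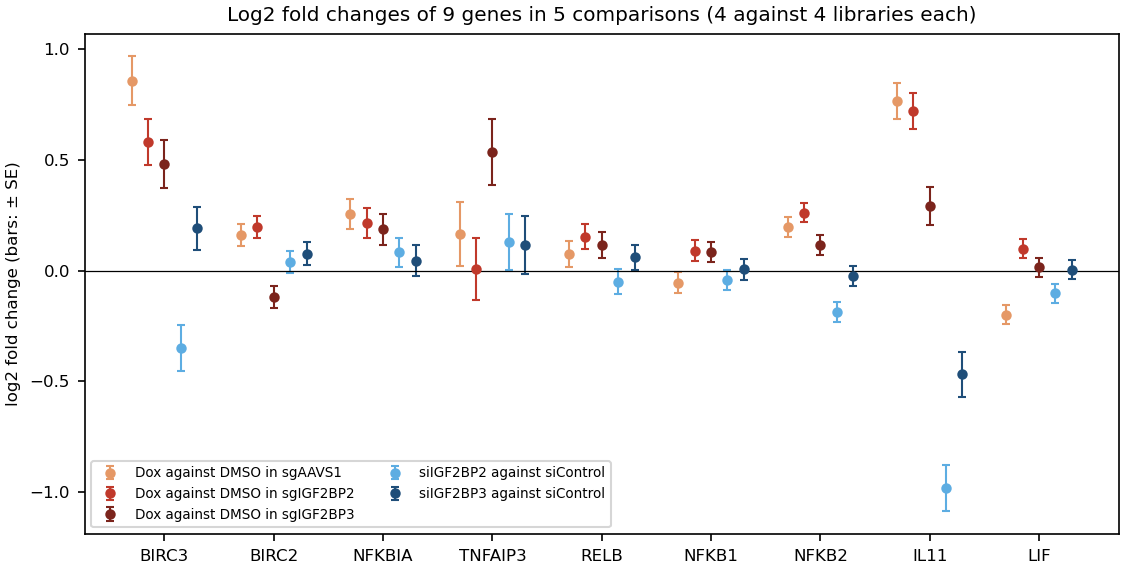
Log2 fold change of the 9 fitted genes (points, bars ± SE) in the 3 Dox comparisons and both siRNA comparisons, 4 against 4 libraries each. BIRC3 and IL11 are above 0 in the 3 Dox comparisons, IL11 is below 0 with both siRNAs (-0.98 and -0.47), and NFKB1 and RELB stay near 0.

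The rest of the pathway was taken from a list of 78 further genes in 7 classes, of which 62 were tested. The other 16 had at most 4 counts in a library. Among those, IL6, TNF, CCL2, LTB, CXCR1, CXCR2 and RNF31, the last a subunit of the ubiquitin ligase LUBAC, were listed at 0 throughout. For RNF31 the meaning of the 0 is uncertain, because the counting steps are not given in the sources used here. With siIGF2BP2, 12 of the 62 rose and 14 fell (41.9%, against 36.8% of all genes). The largest fall was that of IER3, an early response gene and NF-kB target, from 13.3 ± 0.719 to 5.87 ± 1.13 CPM (SD, n = 4; log2 fold change -1.17, SE 0.12, adjusted p = 9.74e-13 by edgeR). CHUK, the kinase IKK-alpha that acts on p100, fell by 0.44 on the log2 scale (SE 0.055, adjusted p = 1.04e-09 by edgeR), TNIP1, a binding partner of A20, by 0.34 and IL6R, the interleukin-6 receptor, by 0.34. TLR3, a receptor for double-stranded RNA, rose by 0.42, TRADD, an adaptor of TNF receptors, by 0.33, the kinase IRAK4 by 0.31 and the IkB-like BCL3 by 0.25. With 1 library left out the call of TLR3 was lost without siControl replicates 1 or 4 (adjusted p = 0.0819 and 0.0526 by edgeR), that of TRADD without siControl replicate 4 or siIGF2BP2 replicate 1 (0.0557 and 0.0731), and that of BCL3 in 4 of 8 fits (up to 0.248). BCL3 was also not called by DESeq2 (adjusted p = 0.0689).

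The class of cytokine receptors and their relay includes the relay of IL11 and LIF. Of its 8 tested genes, 4 fell and 2 rose with siIGF2BP2, where 18.4% of all genes were called in each direction. Its share called, 75.0%, was the highest of all classes on the list. The other classes ran from 27.3% for inhibitors to 50.0% for kinases and for subunits, and the whole list stood at 41.9%. Being the extreme of the classes, this share is given as a description, and a joint response of the relay was not tested. Named after their values were seen, IL6ST fell by 0.26 (SE 0.063), the kinase JAK1 by 0.28 (SE 0.042) and the transcription factor STAT3 by 0.28 (SE 0.041) on the log2 scale, with edgeR adjusted p-values of 7.56e-04, 2.02e-07 and 3.86e-08. The receptor chain IL11RA rose by 0.72 (SE 0.19, adjusted p = 0.00225 by edgeR), and the JAK family kinase TYK2 by 0.20 (SE 0.038, adjusted p = 3.21e-05 by edgeR). IL11RA was scarce, with 16 to 63 counts in a library and a log2 CPM averaging 1.28, below the 2 required for naming by rule. LIFR, the other receptor chain for LIF, did not pass the filter. Of the subunits on the list, RELA fell by 0.21 (SE 0.036, adjusted p = 1.99e-06 by edgeR), also named after its value was seen.

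With siIGF2BP3, 1 of the 62 pathway genes rose and 3 fell (6.45%, against 2.34% of all genes). TNFRSF12A, the receptor of the cytokine TWEAK, rose from 221 ± 21.5 to 281 ± 11.6 CPM (SD, n = 4; log2 fold change 0.34, SE 0.061, adjusted p = 1.05e-04 by edgeR). IL6R fell from 39.6 ± 1.23 to 27.0 ± 0.788 CPM (log2 fold change -0.56, SE 0.056, adjusted p = 9.62e-12 by edgeR), and TNIP1 fell by 0.17. STAT3 fell by 0.14 (adjusted p = 0.0482 by edgeR), a call that was lost in each of the 8 fits that left out 1 library, with adjusted p up to 0.160, and TNIP1 was no longer called without siIGF2BP3 replicate 1 (0.0606). The call of STAT3 was also lost without the filter on low counts (adjusted p = 0.0913 by edgeR). IL6R, TNIP1, STAT3 and TNFRSF12A were called in the same direction with both siRNAs, as was IL11. The share of all genes called in the same direction with both was not computed, and siIGF2BP2 called 36.8% of all genes.

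The siRNA effects themselves, each from its own line, differed for 12 of the 62 (19.4%, against 18.7% of all genes). Pool and line cannot be told apart here. IER3 differed by 0.96 (SE 0.16, adjusted p = 4.85e-06 by edgeR), CD83 by 0.40, CHUK by 0.33 and BCL2A1, an inhibitor of apoptosis, by 0.33, all with the higher value for siIGF2BP3. BCL3 (-0.54), IL6R (-0.22), IKBKB, the kinase IKK-beta (-0.18), and TYK2 (-0.17) differed the other way. IER3, which fell further than IL11 with siIGF2BP2, had a log2 change of -0.20 (SE 0.11) with siIGF2BP3 that did not pass the test (adjusted p = 0.397 by edgeR). When 1 of the 16 libraries was left out, the call of IL6R in the difference was lost in 9 fits (adjusted p up to 0.117), that of IKBKB in 6 (up to 0.0962) and that of TYK2 in 1 (0.0522, without siIGF2BP3 replicate 1). Without the filter on low counts IL6R and IKBKB were not called either (adjusted p = 0.112 and 0.0594 by edgeR), nor was IL6R by DESeq2 (0.0656).

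**Figure D4:**
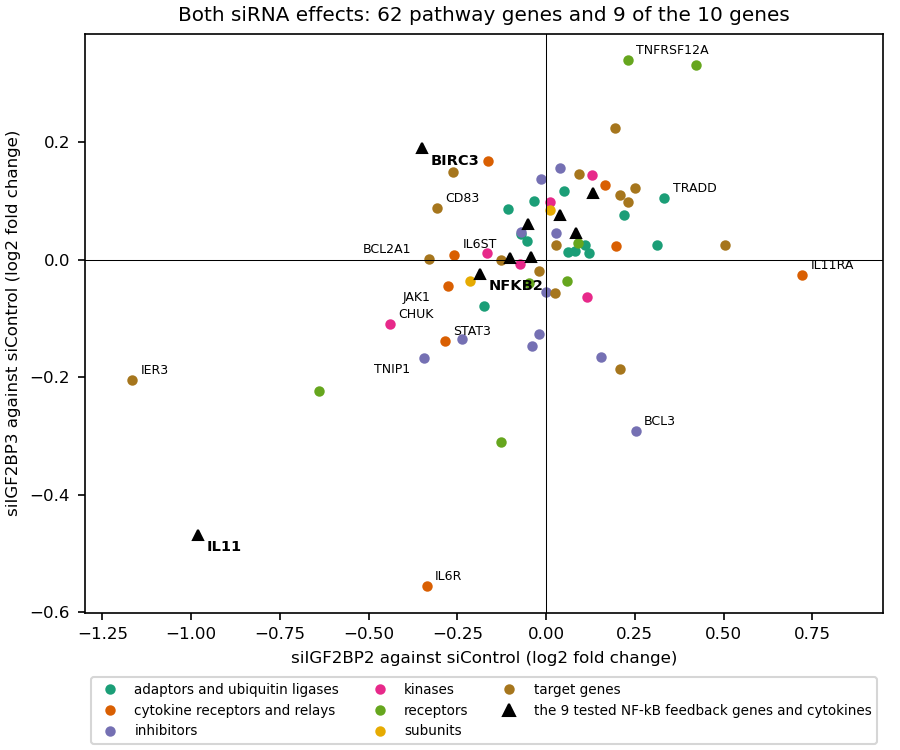
Log2 fold change against siControl with siIGF2BP2 (horizontal) and siIGF2BP3 (vertical) for the 62 tested pathway genes (circles, coloured by class) and the 9 fitted genes (triangles). IL11 lies at the lower left (-0.98 and -0.47), IER3 far left (-1.17), and BIRC3 at the upper left (-0.35 and 0.19).

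The pathway genes outside the set were tested in the Dox comparisons too. Their list was written with earlier results of these data known, so their shares are not free of that choice. In sgAAVS1 cells 11 of the 62 rose and 5 fell (25.8%, against 15.9% of all genes, 7.25% higher and 8.68% lower). The subunit gene REL rose from 3.56 ± 0.435 to 5.24 ± 0.903 CPM (SD, n = 4; log2 fold change 0.57, SE 0.15, adjusted p = 0.00623 by edgeR), TLR3 rose by 0.55 and CYLD, a deubiquitinase that restrains NF-kB, by 0.46. BCL2A1 fell by 0.42, IKBKB by 0.13 and IRAK1 by 0.12, the call of IKBKB being lost in 6 of the 8 fits that left out 1 library (adjusted p up to 0.143) and that of IRAK1 without DMSO replicate 2 (0.0867). IKBKB was also not called without the filter or with only the groups compared (adjusted p = 0.0546 and 0.056 by edgeR). In sgIGF2BP2 cells 11 rose and 1 fell (19.4%, against 20.4% of all genes, 10.0% higher and 10.4% lower). The nuclear IkB protein gene NFKBIZ rose by 0.63 (SE 0.072, adjusted p = 2.47e-10 by edgeR), the stress gene GADD45B by 0.45, the inhibitor NFKBIE by 0.44, and OTULIN, a deubiquitinase, fell by 0.18, a call lost in 3 of 8 such fits (up to 0.132). With only the groups compared OTULIN was not called either (adjusted p = 0.06 by edgeR). In sgIGF2BP3 cells BCL2A1 alone was called, falling by 0.26 (1.61%, against 2.64% of all genes, 1.01% lower).

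The comparisons in sgAAVS1 and sgIGF2BP2 cells share no library. Of the 11 pathway genes that rose in each, 5 were called in both: CYLD (0.46 and 0.39), GADD45B (0.37 and 0.45), ICAM1 (0.28 and 0.16), NFKBIE (0.23 and 0.44) and SDC4 (0.22 and 0.17). These are 8.06% of the 62 genes and 45.5% of each list of 11. Over all genes tested, 296 were called higher in both (2.59%), which is 35.7% of the 828 in sgAAVS1 and 25.9% of the 1143 in sgIGF2BP2 cells. ICAM1 encodes an adhesion molecule and SDC4 a heparan sulfate proteoglycan of the cell surface, and these 5 were named after their values were seen. In sgAAVS1 cells the call of GADD45B was lost in 3 of the 8 fits without 1 library (adjusted p up to 0.104 by edgeR) and that of NFKBIE in 2 (up to 0.0751), and in sgIGF2BP2 cells that of SDC4 in 1 (0.0555, without Dox replicate 2).

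The genes most like BIRC3 and IL11 over the 10 group means were sought among 9957 genes whose log2 CPM averaged 2 or more. For BIRC3 they were SUN3 (r = 0.97), WASHC2C (0.97), TAP1 (0.96), LGALS3 (0.96) and BAK1 (0.94). For IL11 they were NCOA4 (0.98), TNFRSF10D (0.97), WDR37 (0.97), RAC2 (0.96) and FAM174A (0.95). Pearson's r is given as a description over 10 means that share their cell lines and libraries. Within the set, BIRC3 was most like RELB (r = 0.91), NFKBIA was also like RELB (0.81), and IL11 was most like NFKB2 (0.76) and NFKB1 (0.72). BIRC3 and IL11 had an r of 0.00 with each other: both were higher with Dox, but BIRC3 was high and IL11 low in the siControl and siIGF2BP3 groups.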

How the data were processed

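Poly(A) RNA of 40 SLAMseq cultures was sequenced as directional libraries, per the labels' protocols. The authors deposited whole-number counts of reads per gene, not normalized. The submitters' processing notes name build hg38, STAR 2.7.5c and bcl2fastq 2.20.0.422. The counting tool, the annotation and the strand setting are not given in the sources used here. Gene names, positions and exon lengths came from GENCODE 29 (GRCh38), which holds 19847 of the 19962 identifiers. No base of an exon of the 10 genes is shared with another listed gene.

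Counts were fitted in R 4.3.3 with edgeR 4.0.16 (TMM scaling, filterByExpr by group, glmQLFit and glmQLFTest over all 40 libraries, 1 coefficient per group, no covariates), with Benjamini-Hochberg adjustment over the 11428 genes kept, which hold 99.98% of counts. A gene was called at an adjusted p under 0.05. The standard error is the size of the log2 fold change divided by the square root of F. CPM uses TMM-scaled totals (factors 0.978 to 1.03). The steps were tested on simulated data. Over 60 replicate pairs the chi-square per gene was 1.49 to 16.6 with a median of 2.27 (1 would be sampling noise alone). Which pair had the highest value was not recorded, and all were kept as separate replicates.

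The 10 genes and the lists of pathway genes and markers were chosen with earlier results of these data known. A marker gene of the leukocyte list is not reported here. Pathway genes were named by rule, as the called rises and falls of greatest size and a log2 CPM averaging 2 or more, up to 4 each per siRNA comparison and 3 per Dox comparison. Alternatives were another scaling (RLE), no filter, a replicate block, DESeq2 1.42.0, a fit to only the groups compared, and leaving out each library.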

Additional observations from a re-analysis of the deposited data

Results flagged for a closer look

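The siRNA effects differed by edgeR's test of the difference for BIRC3 (0.54 in log2, adjusted p = 0.00352), which was lower in 4 of 4 libraries with siIGF2BP2 and not called with siIGF2BP3, and for IL11 (0.51, adjusted p = 0.00837), which fell with both. Pool and line cannot be told apart in these differences. A library stood apart from the other 3 of its group in 4 of the 100 groups of single-gene values, where chance flags about 1 in 20. NFKBIA was at 28.4 CPM in replicate 4 of sgIGF2BP3 cells with Dox, against 30.3 to 30.4 CPM in the others. TNFAIP3 was at 5.32 CPM in replicate 3 of sgIGF2BP2 cells with Dox, against 4.42 to 4.56 CPM. RELB was at 45.5 CPM in replicate 2 of sgIGF2BP3 cells with siControl, against 42.9 to 43.1 CPM. NFKB2 was at 102.6 CPM in replicate 1 of sgIGF2BP2 cells with DMSO, against 112.1 to 113.4 CPM.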

How the results depend on the processing

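Of 1189 tested values of single genes under the alternatives, 1119 kept their side of the threshold, 57 lost and 13 gained a call. The sign turned in 37 of them, none with a call in either fit, and in 6 of 351 untested Dox values (TNFAIP3 in sgIGF2BP2 and LIF in sgIGF2BP3 cells). The calls of BIRC3, NFKB2 and IL11 with siIGF2BP2, of IL11 with siIGF2BP3, and of BIRC3 and IL11 in the difference held in every alternative run, with an adjusted p of at most 0.0447 when a library was left out. Fitting only the groups compared called 465 genes with siIGF2BP3 (267 in all groups) and 477 with Dox in sgIGF2BP3 cells (302). Between the siControl groups 13 genes were called without the filter, 5 with a replicate block and 4 with only the groups compared, against 2. Of the pathway genes with Dox in sgIGF2BP3 cells, 3 were called without the filter, 3 with the replicate block, 2 by DESeq2 and 3 with only the groups compared, against 1. The cause was not tested. Leaving out 1 library gave 2 to 3 pathway genes with siIGF2BP3 (main 4), 0 to 6 genes between the siControl groups, 10 to 16 pathway genes with Dox in sgAAVS1 cells (lowest without DMSO replicate 2), and 108 to 285 genes (lowest without Dox replicate 4) and 1 to 2 pathway genes with Dox in sgIGF2BP3 cells. Replicate numbers did not pair the libraries: same-numbered libraries correlated at -0.0896 to 0.0393, and at most 1 of 4 correlated best with its own number. TNFAIP3 and CXCL8 have the fewest counts. CXCL8 was not tested, and changes of TNFAIP3 below its errors were not detectable at this depth.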
